A study of Mus musculus with 14 samples.

Results

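The 6 genes *Zfpm1*, *Zfpm2*, *Gata2*, *Gata3*, *Gata4* and *Gata6* were followed in 14 RNA-sequencing libraries of Ocy454 cells, a mouse osteocyte-like line. They are 6 of 39179 genes in the differentiation table and 6 of 35886 in the sorted libraries. They were selected on the fold change of *Zfpm2* between CD61high and CD61low cells, which is among the largest falls, so the values of these genes in the sort are given as a description and without a test. The differentiation experiment shares no library with the sort, and its differences between days were tested.

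Ocy454 cells carry a thermosensitive large T antigen in every group studied here, so that they grow at 33 °C and mature, no longer dividing, once moved to 37 °C. The differentiation experiment has 2 biologic replicates at each of days 1, 7, 10 and 14 at 37 °C. The sort has 3 independent groups of wild-type cells kept at 37 °C for 17 days (the number in the methods, which is not the same in all of the study's text), each giving a CD61high and a CD61low library from the live cells in the top 10% and the bottom 10% of CD61-PE signal, where CD61 is integrin β3, encoded by *Itgb3*. All libraries come from 1 line in culture, so the spread between replicates is the spread between cultures and libraries of that line and not between animals.

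GATA factors are zinc finger transcription factors that bind short DNA sites with a GATA core. FOG proteins (Friend of GATA), encoded by *Zfpm1* and *Zfpm2*, do not rely on such sites themselves. They dock onto the amino-terminal zinc finger of a GATA factor and bring corepressors such as CtBP and the NuRD complex, so the same GATA factor can activate or repress a gene depending on its partner. GATA1, GATA2 and GATA3 are best known from blood cells and GATA4, GATA5 and GATA6 from heart, gut and gonad. FOG2, the product of *Zfpm2*, is required with GATA4 in the heart and the gonad and can also bind the regulatory subunit of PI3K.

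Depth was 27518605 to 34311238 reads per library in differentiation and 18815602 to 19220064 estimated counts per library in the sort. *Itgb3* followed the gates, at 5.31, 5.54 and 6.10 TMM-normalized CPM (counts scaled to library size) in CD61low and 130, 100.1 and 103.6 in CD61high libraries. All 9 osteoblast and osteocyte markers examined (*Runx2*, *Sp7*, *Col1a1*, *Alpl*, *Bglap*, *Pth1r*, *Dmp1*, *Phex* and *Sost*) had a mean over 1 CPM in both experiments. Of the lineages in which GATA factors are best known, endothelial markers summed to at most 0.861 CPM in any library, and no T cell or mast cell marker had a mean over 1 CPM. Of the erythroid and megakaryocyte markers only *Itga2b*, and of the heart muscle markers only *Tnnt2*, had a mean over 1 CPM across the libraries of an experiment, with *Myh6* at 0 in every library.

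*Zfpm2* lies on chromosome 15 (40518278 to 40970261, plus strand, GRCm39, ENSMUSG00000022306). In differentiation its day 1 libraries had 13.1 and 14.4 CPM, its day 7 libraries 6.81 and 5.35, its day 10 libraries 6.07 and 6.35, and its day 14 libraries 5.65 and 6.58. The day 1 libraries were higher than all 6 later ones, and the later days overlapped. The day 1 mean was 13.7 ± 0.890 CPM (SD, n = 2), which was 2.26 times the day 7 mean of 6.08 ± 1.03 and 2.25 times the day 14 mean of 6.12 ± 0.653. *Zfpm2* fell between day 1 and day 7, with a log2 fold change of -1.06 (standard error 0.11) and an adjusted p of 4.8e-09 in limma, with the Benjamini-Hochberg method over 12725 genes. Fold changes of the time course are differences of log2(CPM + 1), a scale that shrinks the change of a low gene below its ratio of CPM. From day 7 to day 10 the difference was 0.03 (95% interval -0.20 to 0.26) and from day 10 to day 14 it was -0.02 (95% interval -0.25 to 0.21) on that scale. Across the whole course, day 14 against day 1, *Zfpm2* fell by 1.05 (standard error 0.11, adjusted p = 3.8e-09 in limma). A call needed an adjusted p below 0.01 together with a log2 fold change beyond 1, and the *Zfpm2* value was close to the second limit. Without replicate 2 of day 7 the fall to day 7 was -0.91, and without replicate 2 of day 1 or replicate 1 of day 14 the fall to day 14 was -0.99 or -0.96, so that the call was lost on the fold limit. With quantile normalization the fall to day 7 was -0.996, and that call was lost as well. Marker sums also differed between day 1 and day 7. The osteoblast and osteocyte markers summed to 35598 to 35643 CPM at day 1, 31345 to 32033 at day 7 and 26601 to 31785 at day 14. Most of this sum is *Col1a1*, at 34687 to 34732 CPM at day 1 and 27210 to 27895 at day 7, while the other 8 markers were higher in both libraries of day 7 and of day 14 than in both of day 1. The macrophage markers summed to 2.35 to 2.69, 1.74 to 1.90 and 3.93 to 3.997 CPM at days 1, 7 and 14, and the erythroid and megakaryocyte markers to 9.15 to 9.85, 5.53 to 5.67 and 6.85 to 7.78. The macrophage sum covers 4 genes, since *Adgre1* had no values in differentiation. Of these *Cd68* had 1.59 and 1.73 CPM at day 1 and 1.68 and 1.69 at day 7. The mesothelial and epithelial markers summed to 1.06 to 1.07 CPM at day 1 and 0.12 to 0.176 at day 7, and the heart muscle markers to 2.98 to 3.17 and 4.82 to 5.76. At day 14 these last sums were 0.109 to 0.175 and 7.43 to 7.67. At day 1 the former is almost all *Msln*, at 1.03 and 1.04 CPM, and the latter is almost all *Tnnt2* at every day. The part of these markers in the differences of the 6 genes between days was not tested. In bulk RNA, fewer cells with a transcript and less of it per cell cannot be told apart, here and for every gene below.

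In the sort *Zfpm2* had 20.04, 22.8 and 23.9 TMM-normalized CPM in the CD61low libraries and 1.29, 1.96 and 0.529 in the CD61high libraries, from 419, 485 and 489 estimated counts against 22, 34 and 9. All 3 CD61low libraries were far above all 3 CD61high libraries. The means were 22.2 ± 1.97 and 1.26 ± 0.715 (SD, n = 3), a ratio of 17.6 and a fitted log2 fold change of -4.13 (standard error 0.26). This is the value that chose the genes: *Zfpm2* had the 5th lowest fold change of 12077 genes, between *Ifi44* at -4.37 and *Cd74* at -4.13, with *Ogn* next at -4.08. Without replicate 2 of CD61high, the highest of its group, the fitted value was -4.60. Of the 4 *Zfpm2* transcripts quantified, 2 received counts, and ENSMUST00000053467 held 98.3 to 98.6% of the gene's counts in the CD61low and 90.9 to 100% in the CD61high libraries. Other values moved with the gates as well. The osteoblast and osteocyte markers summed to 17094 to 20833 CPM in CD61low and 49173 to 51697 in CD61high libraries. The macrophage markers, of which only *Cd68* had a mean over 1 CPM and *Adgre1* was at 0 in every sorted library, summed to 12.8 to 15.8 CPM in CD61low and 8.18 to 8.86 in CD61high libraries. The heart muscle marker *Tnnt2* had 1.29 to 1.61 CPM in CD61low and 4.88 to 6.62 in CD61high libraries. The endothelial markers summed to 0.282 to 0.861 CPM in CD61low and 0 to 0.173 in CD61high, and the mesothelial and epithelial markers to 0.335 to 0.751 and 0 throughout. The erythroid and megakaryocyte markers summed to 5.88 to 7.71 CPM in CD61low and 7.54 to 8.65 in CD61high libraries, which overlapped. Most of this sum is *Itga2b*, at 5.74 to 7.18 and 5.87 to 6.75 CPM, which overlapped as well. No *Hbb-bs* counts were found, and *Pf4* had at most 0.048 CPM, in a CD61low library. In the same list *Hba-a1*, a globin, had 0 to 0.391 CPM in CD61low and 0.763 to 1.59 in CD61high libraries, and *Gata1* 0.0957 to 0.146 and 0.403 to 0.588. The part of these values in the *Zfpm2* difference was not tested.

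**Figure D1:**
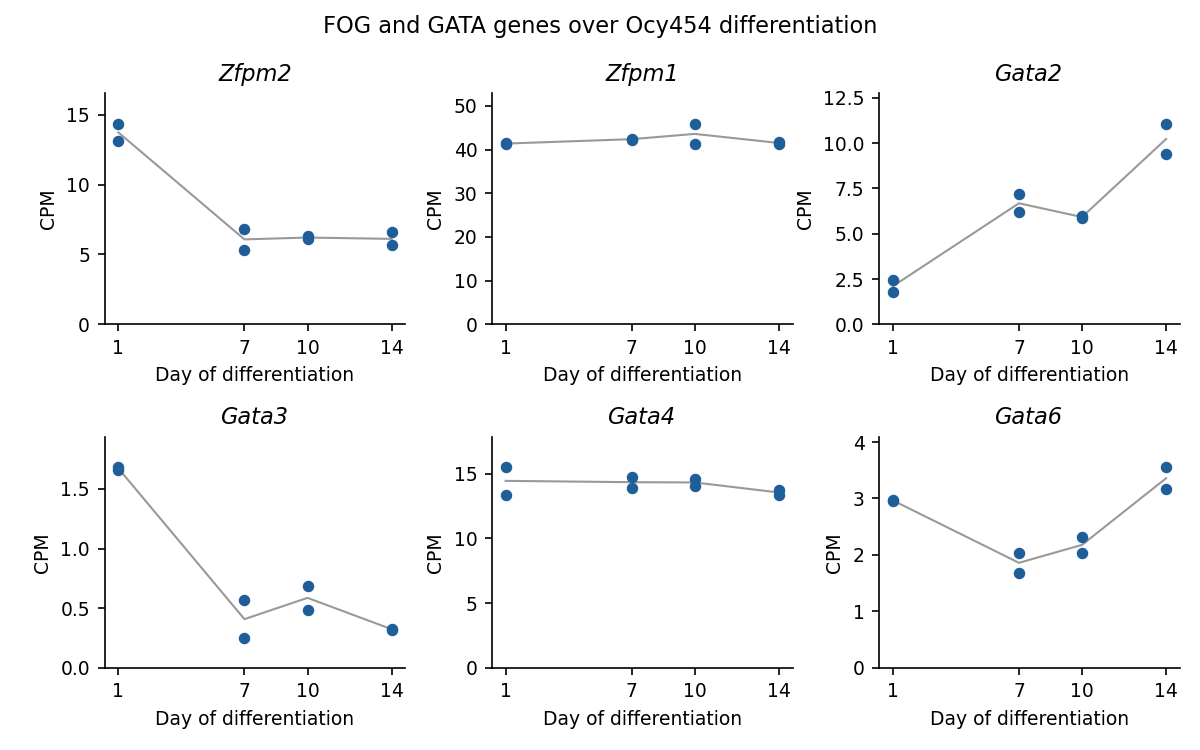
CPM of each gene (vertical axis, starting at 0) in the 8 differentiation libraries against the day at 37 °C (horizontal axis). Points are libraries, 2 per day, and lines join the means. *Zfpm2* and *Gata3* are highest at day 1, *Gata2* is highest at day 14, and *Zfpm1* lies between 41.2 and 45.9 CPM and *Gata4* between 13.4 and 15.5 CPM.

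*Zfpm1*, which encodes FOG1, the cofactor first known from GATA1 in red cells and platelets, lies on chromosome 8 (123008805 to 123065024, plus strand, GRCm39). Its day 1 libraries had 41.5 and 41.2 CPM, its day 7 libraries 42.3 and 42.5, its day 10 libraries 45.9 and 41.2, and its day 14 libraries 41.2 and 41.8. All 8 libraries lay between 41.2 and 45.9 CPM. The day 14 mean of 41.5 ± 0.409 CPM differed from the day 1 mean of 41.4 ± 0.204 (SD, n = 2) by a log2 fold change of 0.0048, with a 95% interval of -0.11 to 0.12 (adjusted p = 0.94 in limma). In the sort *Zfpm1* had 70.6, 62.1 and 61.1 TMM-normalized CPM in CD61low and 94.7, 109 and 95.2 in CD61high libraries, a fitted log2 fold change of 0.62 (standard error 0.09), or 0.32 with scaling by library size alone. Its groups did not overlap in CPM. Per length they did, at 43.5 to 45.7 TPM (Salmon's level per transcript length) in CD61low and 44.2 to 60.2 TPM in CD61high libraries. Per kilobase of the length listed in the deposited table, *Zfpm1* was 7.85 and 7.12 times *Zfpm2* in the day 1 libraries and 18.1 and 15.8 times in the day 14 libraries. *Zfpm2* made up 11.3 and 12.3% of the summed per-length level of both FOG genes at day 1 and 5.24 and 5.97% at day 14. The listed length of *Zfpm1* is 2002 bases, while the transcript with most of its counts in the sort has 3390. With that length these ratios would be lower and these *Zfpm2* shares higher. In the sort, by TPM, it made up 13.8 to 16.9% in CD61low and 0.338 to 1.10% in CD61high libraries.

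*Gata2*, a factor of blood stem and progenitor cells, lies on chromosome 6 (88170559 to 88184018, plus strand, GRCm39). Its day 1 libraries had 2.45 and 1.76 CPM, its day 7 libraries 6.18 and 7.18, its day 10 libraries 5.84 and 5.99, and its day 14 libraries 11.1 and 9.38. Both day 1 libraries were lower than all others and both day 14 libraries were higher than all others. The day means were 2.10 ± 0.490, 6.68 ± 0.709, 5.92 ± 0.106 and 10.2 ± 1.20 CPM (SD, n = 2). *Gata2* rose 3.18 times in CPM from day 1 to day 7, a log2 fold change of 1.31 (standard error 0.12, adjusted p = 5.5e-10 in limma). Day 10 differed from day 7 by -0.15 on that scale (95% interval -0.40 to 0.10). From day 10 to day 14 the difference was 0.69 (standard error 0.12, adjusted p = 2.4e-05 in limma), which passed the limit on p and not that on fold. Day 14 was 4.86 times day 1, a log2 fold change of 1.86 (95% interval 1.61 to 2.11, adjusted p = 3.3e-13 in limma). This value exceeded the limit under every alternative tried, between 1.70 and 2.32.

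*Gata3*, a factor of T cells, mammary epithelium and kidney, lies on chromosome 2 (9861889 to 9894845, minus strand, GRCm39) and was per length the lowest of the 6 genes at every day. Its day 1 libraries had 1.68 and 1.66 CPM, its day 7 libraries 0.570 and 0.246, its day 10 libraries 0.689 and 0.483, and its day 14 libraries 0.321 and 0.327. These rest on 57 and 53 reads at day 1 and on 7 to 21 reads in the later libraries, where 1 read is worth about 0.03 CPM. The day 1 libraries stood above all later ones. Only they exceeded the 1 CPM that the filter asked of at least 1 library, so *Gata3* was tested only because day 1 was high. The filter thus favoured a fall from day 1, and the calls of *Gata3* between days are a description. *Gata3* fell between day 1 and day 14, from 1.67 ± 0.0143 to 0.324 ± 0.0046 CPM (SD, n = 2), a ratio of 5.16 and a log2 fold change of -1.01 (95% interval -1.34 to -0.69, adjusted p = 2.3e-06 in limma). This call was lost with TMM scaling, at -0.999. At this level the added 1 in log2(CPM + 1) compresses the ratio strongly. At day 7 the difference from day 1 was -0.93 (standard error 0.16, adjusted p = 1e-05 in limma), short of the fold limit. It passed the limit at -1.88 with a pseudocount of 0.1, at -1.94 in edgeR on the recovered reads, at -1.01 with quantile normalization and at -1.10 without replicate 1 of day 7. In the sort *Gata3* had 3.35, 1.74 and 2.25 TMM-normalized CPM in CD61low and 0.704, 0.921 and 0.706 in CD61high libraries, a fitted log2 fold change of -1.64 (standard error 0.33). The groups did not overlap, and with an offset for transcript length the value was -0.83.

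For *Gata2* and *Gata3*, the GATA genes called between day 1 and day 14, the 250 bases before the starts annotated by RefSeq (GRCm38.p6) are given to show the sequence around which these genes are annotated to begin. No start was measured in these data. The windows are printed with CpG dinucleotides in capitals, and *Gata2* has 2 such windows, for an upstream and a downstream start. They were searched on both strands for 4 spellings of the GATA motif, which are GATA after an A or a T and before an A or a G.
Gata2 upstream start, chr6:88193641-88193890, plus strand: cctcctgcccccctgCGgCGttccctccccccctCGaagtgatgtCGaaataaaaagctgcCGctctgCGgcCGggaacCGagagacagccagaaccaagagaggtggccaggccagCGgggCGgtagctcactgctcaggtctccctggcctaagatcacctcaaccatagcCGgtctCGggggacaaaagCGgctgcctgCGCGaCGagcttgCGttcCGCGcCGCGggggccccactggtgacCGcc
Gata2 downstream start, chr6:88198414-88198663, plus strand: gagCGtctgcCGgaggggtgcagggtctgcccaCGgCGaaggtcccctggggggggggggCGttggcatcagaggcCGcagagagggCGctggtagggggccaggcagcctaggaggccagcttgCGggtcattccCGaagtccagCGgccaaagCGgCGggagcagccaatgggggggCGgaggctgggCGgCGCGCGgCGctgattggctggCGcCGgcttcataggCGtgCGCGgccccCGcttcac
Gata3 start, chr2:9878601-9878850, minus strand: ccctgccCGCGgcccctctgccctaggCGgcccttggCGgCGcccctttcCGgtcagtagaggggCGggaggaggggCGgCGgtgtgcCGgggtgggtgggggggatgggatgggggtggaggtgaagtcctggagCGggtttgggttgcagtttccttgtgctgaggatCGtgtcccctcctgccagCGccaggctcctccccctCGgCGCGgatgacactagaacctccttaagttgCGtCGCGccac
These windows held 22, 24 and 19 CpG dinucleotides at a GC content of 67.2%, 74.0% and 70.0%. The window of *Zfpm1* (chr8:122281891-122282140, plus strand) held 28 at 73.2%, against a median of 6 and 52.4% over 32851 RefSeq windows of the same length. None of these 4 windows held any of the motif spellings, while 26.5% of all windows held at least 1. This says only that these letters are not in these windows.

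In the sorted cells Salmon divided the *Gata2* counts between transcripts of both starts. In CD61low libraries 76.5, 89.4 and 66.3% of the *Gata2* counts were on the transcript with the upstream start (88170559, GRCm39), and in CD61high libraries 18.0, 85.4 and 62.7%. The groups overlapped, and replicate 1 of CD61high stood apart from the other 5 libraries. The gene's counts were 105, 123 and 131 in CD61low and 151, 185 and 168 in CD61high libraries, so each share rests on few reads. In TMM-normalized CPM *Gata2* had 5.02, 5.77 and 6.39 in CD61low and 8.86, 10.7 and 9.88 in CD61high libraries, a fitted log2 fold change of 0.77 (standard error 0.15), with groups that did not overlap. Per length they did, at 2.87 to 7.79 TPM in CD61low and 4.17 to 8.96 TPM in CD61high libraries. With scaling by library size alone the fitted log2 fold change was 0.47.

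**Figure D2:**
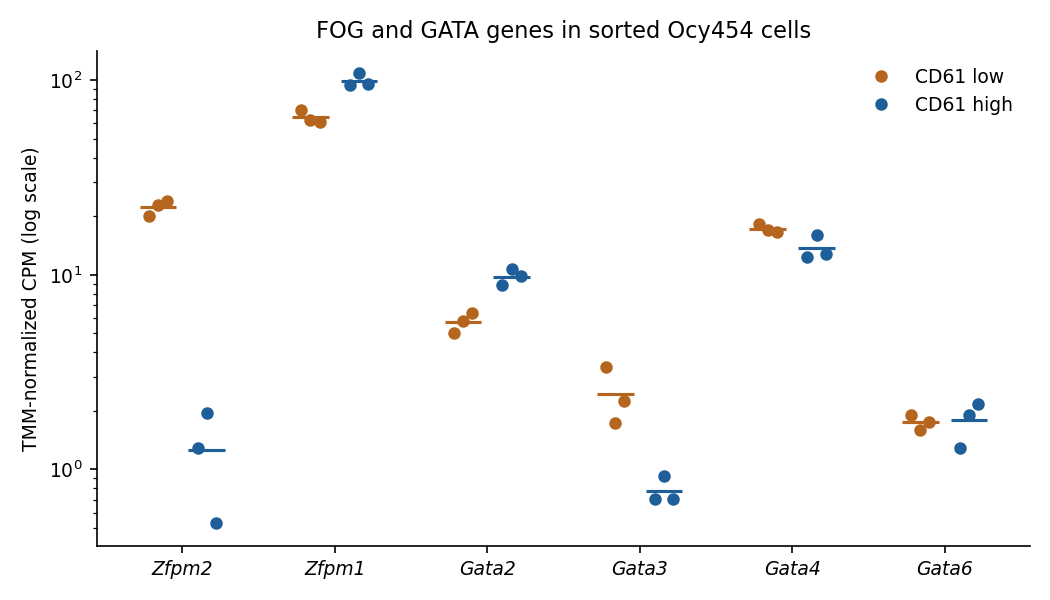
TMM-normalized CPM of each gene (vertical axis, log scale) in the 3 CD61low (brown) and 3 CD61high (blue) libraries. Points are libraries and bars are group means. *Zfpm2* goes from 22.2 to 1.26 CPM, and *Gata6* is the gene whose groups overlap.

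*Gata4*, a factor of heart, gut and gonad whose partner in the heart is FOG2, is encoded on chromosome 14 (63436362 to 63509141, minus strand, GRCm39). In CPM its day 1 libraries had 13.4 and 15.5, its day 7 libraries 14.8 and 13.9, its day 10 libraries 14.1 and 14.6, and its day 14 libraries 13.7 and 13.4. All 8 libraries lay within 13.4 and 15.5 CPM. Day 14 differed from day 1 by a log2 fold change of -0.08, with a 95% interval of -0.26 to 0.09 (adjusted p = 0.39 in limma). In the sort *Gata4* had 18.3, 16.9 and 16.5 TMM-normalized CPM in CD61low and 12.4, 16.1 and 12.8 in CD61high libraries. Its fitted log2 fold change there was -0.33 (standard error 0.12), or -0.63 with scaling by library size alone, and in CPM the highest CD61high library came close to the lowest CD61low library. Per length the groups stood further apart, at 10.9 to 12.4 TPM in CD61low and 6.43 to 8.28 TPM in CD61high libraries. TPM also moves with the transcripts to which Salmon assigned the counts.

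*Gata6*, which acts beside *Gata4* in heart and endoderm, was low. Its day 1 libraries had 2.95 and 2.98 CPM, its day 7 libraries 1.68 and 2.04, its day 10 libraries 2.04 and 2.32, and its day 14 libraries 3.56 and 3.16. The day 7 and day 10 libraries lay below those of days 1 and 14. The difference from day 1 to day 7 was -0.47 (95% interval -0.74 to -0.21, adjusted p = 0.0024 in limma). From day 10 to day 14 it was 0.46 (95% interval 0.19 to 0.72, adjusted p = 0.0036 in limma). Both passed the limit on p and not that on fold. The limit on p was missed at day 7 without the filter on low genes (adjusted p = 0.023 in limma), without replicate 1 or 2 of day 1 (0.016 and 0.019) and without replicate 1 of day 7 (0.041). For day 14 against day 10 it was missed without that filter (adjusted p = 0.03 in limma) and without replicate 1 of day 10 (0.038) or of day 14 (0.037). Day 14 differed from day 1 by 0.13, with a 95% interval of -0.13 to 0.40. In the sort *Gata6* had 1.91, 1.60 and 1.76 TMM-normalized CPM in CD61low and 1.29, 1.90 and 2.18 in CD61high libraries, which overlapped. The fitted log2 fold change was 0.028, and it was -0.27 with scaling by library size alone and 0.42 with an offset for transcript length.

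**Figure D3:**
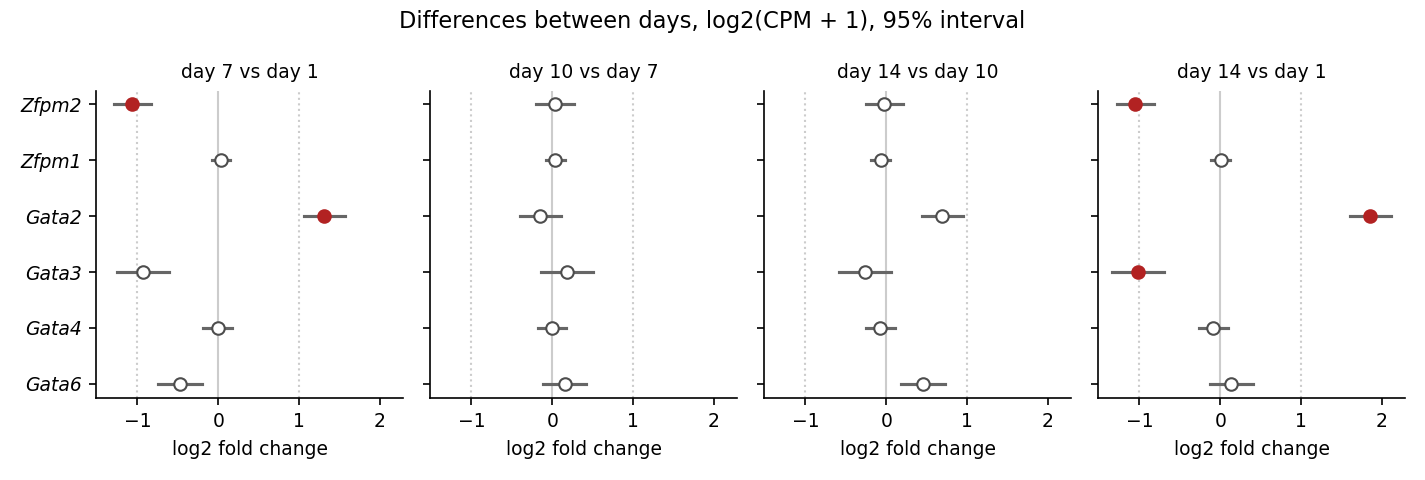
Log2 fold change of each gene on the log2(CPM + 1) scale (horizontal axis) for 4 pairs of days. Bars are 95% intervals from limma, dotted lines mark a log2 fold change of -1 and 1, and filled points passed the limits on both adjusted p and fold. *Zfpm2* and *Gata2* are filled at day 7, and *Zfpm2*, *Gata2* and *Gata3* at day 14 against day 1.

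Between day 1 and day 7, 1 of the 6 genes was called higher (*Gata2*) and 1 lower (*Zfpm2*), where 4.49% of all 12725 genes tested were called higher and 4.62% lower. For day 14 against day 1, 1 was called higher (*Gata2*) and 2 lower (*Zfpm2* and *Gata3*), against 7.51% of all genes higher and 5.9% lower. *Gata3* passed the filter through its day 1 libraries alone, so its call adds nothing to that comparison with all genes. For day 10 against day 7 limma called none of the 6 and edgeR on the recovered reads called none, against 2.22% of all genes called in limma. At an unadjusted p under 0.05 there were 0 of the 6, against 38.8% of all genes higher and 24.9% lower. For day 14 against day 10 neither tool called any of the 6, against 2.96% of all genes called in limma. At an unadjusted p under 0.05 there were 2 of the 6 (*Gata2* and *Gata6*), both higher, against 29% of all genes higher and 37.3% lower. In the sort, which chose the genes, 5 of the 6 had groups that did not overlap, beside 58% of 12077 genes, and nothing is read from this count.

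Per kilobase of listed length the 6 genes changed their order. At day 1 *Zfpm1* stood at 20.7 CPM per kb, followed by *Zfpm2* at 2.77 ± 0.179 and *Gata4* at 2.61 ± 0.272 (SD, n = 2), whose libraries overlapped, then *Gata6* at 0.931, *Gata2* at 0.629 and *Gata3* at 0.421. At days 7 and 10 the order was *Zfpm1*, *Gata4*, *Gata2*, *Zfpm2*, *Gata6* and *Gata3*, with no overlap between neighbours. At day 14 *Gata2*, at 3.06 ± 0.359 CPM per kb, was above *Gata4* at 2.45 ± 0.0417 and second to *Zfpm1*, and *Zfpm2* came after *Gata4* at 1.23 ± 0.131, above *Gata6* at 1.05 ± 0.0875. The listed length of *Gata4* is 5521 bases, while its 3 transcripts with counts in the sort have 2407 to 3400 bases. A shorter length would raise *Gata4* per kilobase. Its place beside *Zfpm2* at day 1 and beside *Gata2* at day 14 therefore depends on the listed lengths, as do the shares that follow. Among the 4 GATA genes *Gata2* made up 16.3 and 11.2% of the summed per-length level in the day 1 libraries and 47.4 and 44.5% in the day 14 libraries. *Gata4* went from 53.8 and 59.9% to 35.5 and 38.4%, at 2.61 and 2.45 CPM per kb of its own. The sum over the 4 genes was 4.60 ± 0.128 CPM per kb at day 1 and 6.64 ± 0.487 at day 14 (SD, n = 2). In the sorted libraries, by TPM, the order in CD61low was *Zfpm1* at 44.5, *Gata4* at 11.6, *Zfpm2* at 8.06, *Gata2* at 4.86, *Gata3* at 1.34 and *Gata6* at 1.01. In CD61high it was *Zfpm1* at 51.1, *Gata4* at 7.42, *Gata2* at 6.66, *Gata6* at 1.16, *Gata3* at 0.658 and *Zfpm2* at 0.371. Libraries overlapped between *Zfpm2* and *Gata2* and between *Gata3* and *Gata6* in CD61low, and between *Gata4* and *Gata2*, *Gata6* and *Gata3*, and *Gata3* and *Zfpm2* in CD61high. TPM of these genes also moves with the transcripts to which Salmon assigned the counts. *Gata4* counts were spread over 3 transcripts whose shares varied between libraries of a group.

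**Figure D4:**
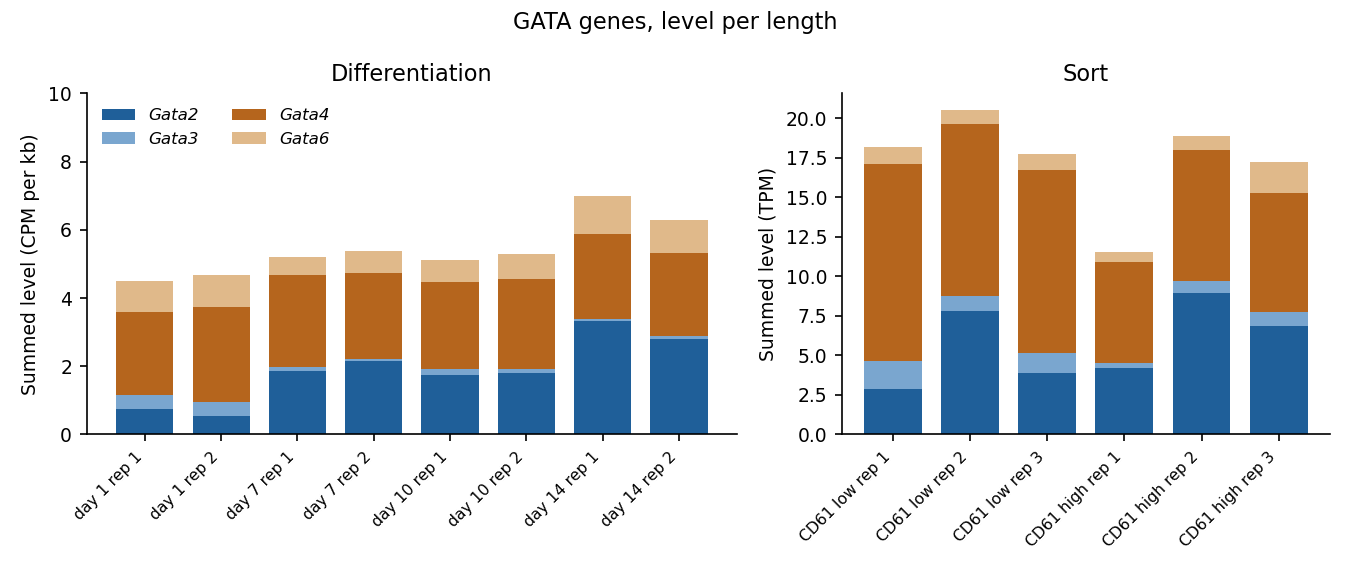
Summed level per length of the 4 GATA genes (vertical axis, stacked bars starting at 0) in each library, as CPM per kb in differentiation (left) and TPM in the sort (right), which are separate scales. By listed length the *Gata2* part grows from 16.3 and 11.2% at day 1 to 47.4 and 44.5% at day 14. *Gata4* is the largest part in the CD61low libraries.

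The course of each gene over the 8 differentiation libraries was compared with that of 10313 genes of at least 5 CPM on average, by Pearson's r of log2(CPM + 1). The libraries share their days, so any gene that steps at the same day scores high, and r is a description. Most like *Zfpm2* were *Grk5* (r = 0.99), which encodes a kinase of G protein-coupled receptors, *Ehd3*, *Pitrm1*, *BC004004* and *Ltbp2*, a matrix protein that binds fibrillin. The day means of *Grk5* were 12.9, 4.62, 4.68 and 4.90 CPM in the order of the days. Most like *Gata2* were *Ppp1r7* (r = 0.99), *Crocc*, *Klf3*, *Fam211a* and *Lama5*, a laminin chain that went from 3.70 CPM at day 1 to 31.8 at day 14. Most like *Gata3* were *Tesk2*, *Aldh9a1*, *Ehbp1l1*, *Parp12* and *Cul7*, and most like *Gata6* were *Cep170*, *Nsun6*, *Dnajb14*, *Flot1* and *BC068281*. The gene closest to *Zfpm1* was *Smndc1*, with r = 0.85, and the closest to *Gata4* was *Xrcc3*, with r = 0.86. Among the 6 genes r was 0.96 between *Zfpm2* and *Gata3*, -0.92 between *Zfpm2* and *Gata2* and -0.95 between *Gata2* and *Gata3*.

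Other GATA-type zinc finger genes did not pass both limits in limma for any of the 4 pairs of days tested or in edgeR for the sort. Of all genes limma called 4.49% higher and 4.62% lower at day 7 against day 1. It called 2.22% at day 10 against day 7 and 2.96% at day 14 against day 10. *Gata1*, the red cell factor, had 0 of 65759468 reads at day 1 and 10 and 13 reads in the day 14 libraries. That is 0.382 ± 0.128 CPM (SD, n = 2) at day 14, at least 4.06-fold higher than 3 reads in the smaller day 1 library, a bound that covers counting error only. *Gata5* had 0 reads in every differentiation library. Of the 11 genes listed, 9 were tested in differentiation and 8 in the sort. Limma called 0 of 9 at day 14 against day 1, beside 7.51% of all genes called higher and 5.9% lower. At an unadjusted p under 0.05 in limma 4 were higher and 4 lower, where 36.8% of all genes were higher and 40.5% lower. EdgeR on the recovered reads and limma with a pseudocount of 0.1 called 1 lower, both at day 14 and at day 7. At day 14 against day 1 the largest difference in limma was that of *Zglp1*, a gene of the germ line, at 0.902 against 2.06 CPM. EdgeR called 0 of 8 in the sort, beside 4.84% of all genes called higher and 4.37% lower, and DESeq2 called 0. At an unadjusted p under 0.05 in edgeR 2 were higher and 3 lower, where 29.3% of all genes were higher and 27.3% lower. *Trps1*, a repressor of the GATA type in cartilage and bone, had 185 ± 7.94 CPM at day 14 and 146 ± 3.65 at day 1, a log2 fold change of 0.34. At day 7 it was higher, with 275 ± 9.49 CPM, a log2 fold change from day 1 of 0.91 (adjusted p = 2.3e-16 in limma), and at day 10 it had 181 ± 8.47 CPM, a difference from day 7 of -0.61 (adjusted p = 4.6e-12 in limma). Both passed the limit on p and not that on fold.

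The genes of the corepressors that FOG proteins recruit had no call in any comparison. Limma called 4.49% of all genes higher and 4.62% lower at day 7 against day 1. It called 2.22% at day 10 against day 7 and 2.96% at day 14 against day 10. With shares this low and so few genes, the absence of calls says little. All 16 genes for CtBP and NuRD subunits were tested, 5 of which also belong to the GATA-type zinc finger list. At day 14 against day 1 limma called 0, beside 7.51% of all genes higher and 5.9% lower, and edgeR on the recovered reads called 0. At an unadjusted p under 0.05 in limma 5 were higher and 9 lower, where 36.8% of all genes were higher and 40.5% lower. The median log2 fold change of the 16 was -0.31, where that of all genes was -0.03. The range ran from -0.74 in *Rbbp7*, a histone-binding subunit at 224 ± 5.55 CPM at day 14 and 375 ± 0.284 at day 1 (SD, n = 2), to 0.62 in *Mbd2*, the methyl-CpG binding subunit. In the sort edgeR and DESeq2 called 0 of 16, beside 4.84% of all genes higher and 4.37% lower in edgeR, and 4 were higher and 6 lower at an unadjusted p under 0.05 in edgeR, where 29.3% of all genes were higher and 27.3% lower. The median of the 16 was -0.02 against 0.0035 over all genes. *Ctbp1* stood at 360 ± 5.57 CPM and *Ctbp2* at 27.0 ± 3.37 at day 14. For day 14 against day 10, 2 of the 16 were higher and 12 lower at an unadjusted p under 0.05 in limma. Over all genes 29% were higher and 37.3% lower, and the medians were -0.18 for the 16 and -0.04 for all genes. For day 10 against day 7, 3 were higher and 6 lower, where 38.8% of all genes were higher and 24.9% lower. The medians there were -0.09 and 0.07, and for day 7 against day 1 they were 0.17 and -0.05.

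Of the 22 partner and cofactor genes 14 were tested in differentiation, and at day 14 against day 1 limma called 1 higher and 2 lower, beside 7.51% and 5.9% of all genes. *Mef2c*, a partner of GATA4 in the heart and a regulator of *Sost* in osteocytes, rose from 183 ± 1.65 to 775 ± 3.12 CPM (SD, n = 2), a log2 fold change of 2.08 (adjusted p = 1.4e-25 in limma). *Nr2f2*, an orphan nuclear receptor that binds FOG2, fell from 50.7 ± 0.369 to 15.0 ± 0.0218 CPM, a log2 fold change of -1.69 (adjusted p = 9.8e-18 in limma). *Runx1*, a partner of GATA factors in blood, fell from 63.2 ± 0.277 to 22.6 ± 1.27 CPM (adjusted p = 1.7e-17 in limma). The median of the list was 0.0037. In the sort 15 were tested, 0 were called higher and 1 lower, beside 4.84% and 4.37% of all genes. The gene called was *Nr2f2*, at 51.8 ± 2.70 TMM-normalized CPM in CD61low and 25.0 ± 0.589 in CD61high cells (SD, n = 3). DESeq2 called 0 higher as well. At an unadjusted p under 0.05 in edgeR 6 were higher and 3 lower, where 29.3% of all genes were higher and 27.3% lower. *Mef2c* had 267 ± 44.9 TMM-normalized CPM in CD61low and 529 ± 59.5 in CD61high cells, a log2 fold change of 0.99 (adjusted p = 9.2e-05 in edgeR) just short of the limit. Without replicate 3 of CD61low or replicate 2 of CD61high 1 gene of the list was called higher, and with scaling by library size alone 2 were called lower.

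Of 27 genes reported elsewhere as GATA targets, 13 were tested in differentiation and 12 in the sort, the others being too low. At day 14 against day 1 limma called 2 higher and 5 lower, beside 7.51% of all genes higher and 5.9% lower. *Alpl*, alkaline phosphatase, rose from 412 ± 0.462 to 1676 ± 3.60 CPM (SD, n = 2), and *Pdgfra*, a growth factor receptor, rose as well. The largest falls were in *Vcam1*, an adhesion molecule, from 18.9 ± 0.417 to 3.37 ± 0.392 CPM, and *Edn1*, endothelin, from 4.77 ± 0.484 to 0.626 ± 0.143 CPM. At days 7 and 10 *Edn1* had means of 0.582 and 0.781 CPM. It thus passed the filter only through day 1, and its call is a description. *Dab2*, an endocytic adaptor, fell from 109.7 ± 3.29 to 30.8 ± 0.228 CPM, and *Ccnd2* and *Inhba* also fell. In the sort 4 passed the limits as higher (*Alpl*, *Pdgfra*, *Sox9* and *Runx2*) and 3 as lower (*Vcam1*, *Ccnd2* and *Dab2*), beside 4.84% of all genes higher and 4.37% lower. Without a filter on low genes and with edgeR's filterByExpr 5 were lower. *Alpl* was at 889 ± 110 TMM-normalized CPM in CD61low and 3232 ± 123 in CD61high cells, and *Vcam1* at 7.71 ± 1.57 and 0.758 ± 0.267 (SD, n = 3). *Pdgfra* was at 122 ± 18.1 and 418 ± 44.4, and *Ccnd2*, cyclin D2, at 40.5 ± 2.30 and 13.8 ± 0.866. *Alpl* and *Runx2* are also among the osteoblast markers above. The median log2 fold change of the list was 0.14 in differentiation and 0.33 in the sort, against -0.03 and 0.0035 over all genes.

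Of the 10 PI3K pathway genes, all tested, limma called 0 higher and 1 lower at day 14 against day 1, beside 7.51% and 5.9% of all genes. *Pik3r3*, a regulatory subunit, fell from 40.7 ± 1.59 to 4.80 ± 0.513 CPM (SD, n = 2), a log2 fold change of -2.85 (adjusted p = 1.7e-20 in limma). *Pik3r1*, the main regulatory subunit, had 88.4 ± 3.07 CPM at day 1 and 43.9 ± 1.504 at day 14, a log2 fold change of -0.99 that was just short of the limit. With a pseudocount of 0.1, without replicate 2 of day 1 or without replicate 1 of day 14 the list had 2 genes called lower. EdgeR on the recovered reads called 0 higher. At an unadjusted p under 0.05 in limma 3 were higher and 5 lower, where 36.8% of all genes were higher and 40.5% lower. In the sort edgeR called 0 higher and 3 lower, beside 4.84% and 4.37% of all genes, and DESeq2 called 0 higher. The number called lower was 2 to 4 under the other settings and 2 to 3 with each library left out in turn. At an unadjusted p under 0.05 in edgeR 4 were higher and 4 lower, where 29.3% of all genes were higher and 27.3% lower. The 3 called lower were *Pik3cd*, a catalytic subunit, at 16.8 ± 0.907 TMM-normalized CPM in CD61low and 6.35 ± 0.948 in CD61high cells, *Pik3r1* at 41.4 ± 3.66 and 16.0 ± 0.652, and *Pik3r3* at 9.76 ± 0.129 and 4.46 ± 1.51 (SD, n = 3). These comparisons of the sort use the same 6 libraries as the choice of *Zfpm2*.

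Set beside the fall of *Zfpm2* and the rise of *Gata2* between day 1 and day 7, the related genes called in that interval were the partners *Mef2c* (higher) and *Nr2f2* (lower), the targets *Alpl* and *Runx2* (higher) and *Vcam1*, *Edn1*, *Dab2*, *Ccnd2* and *Inhba* (lower), and *Pik3r3* (lower), beside 4.49% of all genes called higher and 4.62% lower. *Edn1* was tested only because day 1 was high, so its call is a description. *Nr2f2* had 50.7 ± 0.369 CPM at day 1 and 16.9 ± 0.454 at day 7, and *Mef2c* 183 ± 1.65 and 803 ± 30.0 (SD, n = 2). For day 10 against day 7 the call among the 5 lists was *Runx1*, at 20.7 ± 0.501 CPM against 44.0 ± 1.33. For day 14 against day 10 the calls were *Pik3r3*, at 4.80 ± 0.513 against 18.7 ± 1.30 CPM, and *Pik3r1*, at 43.9 ± 1.504 against 90.4 ± 0.609. The latter, with a log2 fold change of -1.03, was near the limit, and the list had 1 gene called lower in place of 2 with TMM scaling, with quantile normalization, in edgeR on the recovered reads and without replicate 2 of day 14. Limma and edgeR on the recovered reads called 0 of the 13 target genes in these later intervals, beside 2.22% and 2.96% of all genes called in limma, with 7 higher and 4 lower for day 10 against day 7 and 1 higher and 7 lower for day 14 against day 10 at an unadjusted p under 0.05 in limma. Over all genes these shares were 38.8% higher and 24.9% lower in the former interval and 29% and 37.3% in the latter.

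**Figure D5:**
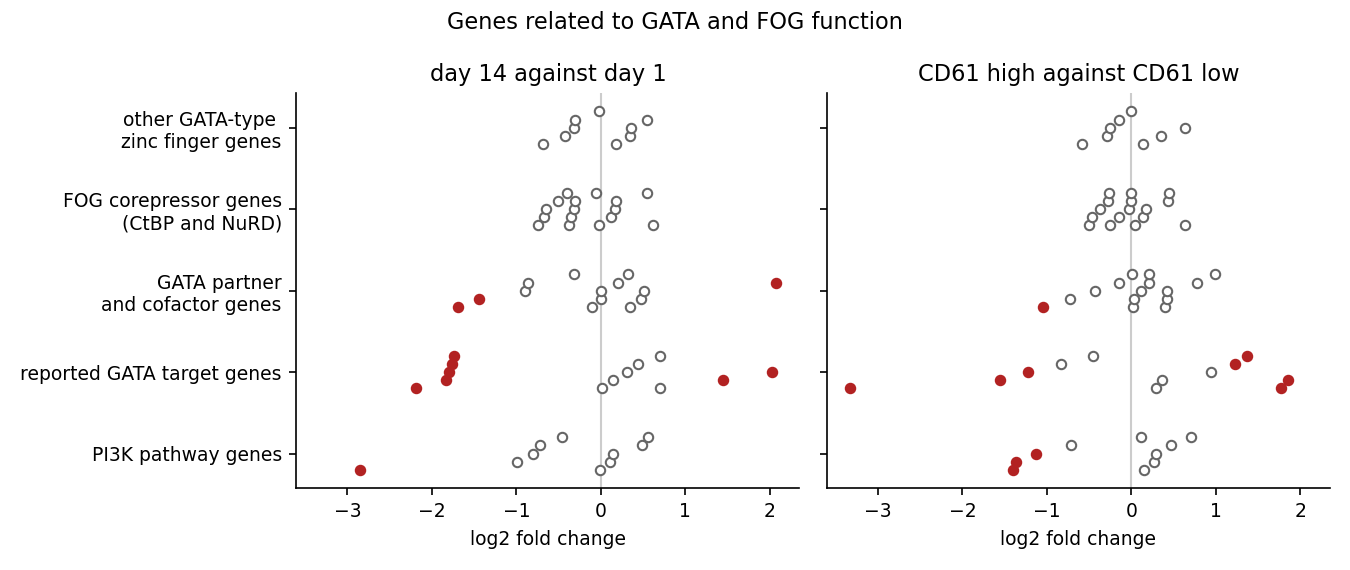
Log2 fold change (horizontal axis) of every tested gene of the 5 lists (rows) for day 14 against day 1 in limma (left) and CD61high against CD61low in edgeR (right). Each point is a gene and filled points passed the limits on adjusted p and fold. The corepressor row has no filled point in either panel, and the target row has 2 higher and 5 lower on the left and 4 higher and 3 lower on the right.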

How the data were processed

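The differentiation table was made by the authors with STAR and HTSeq-count and deposited as CPM, counts scaled to library size. Its build is not given in the sources used here. In each library 100% of the CPM values were within 0.01 of whole multiples of 1 read, which gave back the reads. For the sort the authors deposited Salmon's estimated counts and TPM per transcript (GRCm39). Of 116747 transcripts, 115556 were matched to GENCODE M39 and hold 99.3 to 99.4% of the estimated counts, which were summed per gene and rounded.

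The 8 differentiation libraries were fitted together by limma 3.58.1 on log2(CPM + 1), with eBayes using a trend, for genes with CPM above 1 in at least 1 library. The sorted libraries were fitted with edgeR 4.0.16 (TMM factors, quasi-likelihood test, at least 5 normalized counts in all 6 libraries) in R 4.3.3. P-values were Benjamini-Hochberg adjusted over all genes tested, with calls made at an adjusted p below 0.01 if the log2 fold change was beyond 1. TPM was used for levels per length, between genes and, for *Zfpm1*, *Gata2*, *Gata4* and shares of summed levels, between the gates. Alternatives were DESeq2 1.42.0, edgeR on the recovered reads, other scalings, filters and pseudocounts, a length offset, a block for replicate numbers, and leaving out each library in turn. The tables were normalized separately and no level was compared between them.

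The 6 genes, the 5 lists of related genes and the tests were chosen with earlier results of these data known. Values were given for the 6 genes and for up to 4 called genes per list and comparison by size of fold change, other called genes being named without values. Also named were the marker genes, *Itgb3*, the genes next to *Zfpm2* in rank, and the 5 genes most like each of the 6 in course; *Rbbp7*, *Mbd2*, *Ctbp1*, *Ctbp2*, *Trps1*, *Zglp1*, *Gata1*, *Gata5*, *Pik3r1* at day 14 and *Mef2c* in the sort were named in addition, after their values were seen. Promoter windows were from RefSeq (GRCm38.p6), where 3 of the 6 genes matched, and coordinates from GENCODE M39. Fewer than 3 reads cannot be told from 0, and such limits cover counting error only. Python 3.11.15, pandas 2.3.3 and matplotlib 3.10.9 were used.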

Additional observations from a re-analysis of the deposited data

How the results depend on the processing

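For the 24 fold changes of the 6 genes between days, 364 of 398 values under other settings kept the direction and the side of the limits for a call. For the 6 fold changes in the sort, 75 of 84 moved by less than the spread between replicates (1 SD). For the 10 counts of all genes called, 153 of 164 were within 1.5 times the count reported. Scaling by library size alone shifted the median log2 fold change of all genes in the sort to -0.29 and gave 316 genes higher and 963 lower in place of 585 and 528, with *Zfpm1* at 0.32, *Gata2* at 0.47, *Gata3* at -1.94, *Gata4* at -0.63 and *Gata6* at -0.27. A length offset gave *Zfpm1* 0.50, *Gata3* -0.83 and *Gata6* 0.42. EdgeR on the recovered reads called 876 genes higher at day 7 against day 1 in place of 571, 334 higher and 216 lower at day 10 against day 7 in place of 182 and 100, and 504 and 227 at day 14 against day 10 in place of 266 and 111. A pseudocount of 0.1 gave 377 and 175 at day 10 against day 7 and 425 and 246 at day 14 against day 10. *Gata3* at day 7 against day 1 passed the limit at -1.88 with a pseudocount of 0.1, -1.01 with quantile normalization and -1.94 in edgeR on the reads, and at day 14 against day 1 missed it at -0.999 with TMM scaling. *Zfpm2* at day 7 against day 1 missed it at -0.996 with quantile normalization. Small differences turned sign: *Zfpm2* at day 10 against day 7 with TMM scaling (-0.026), quantile normalization (-0.091) and edgeR on the reads (-0.048), *Zfpm2* at day 14 against day 10 with TMM scaling and edgeR (0.029 in both), *Zfpm1* at day 10 against day 7 (-0.031, -0.029 and -0.030 with TMM scaling, quantile normalization and edgeR), *Zfpm1* at day 14 against day 1 with quantile normalization (-0.00096), *Gata4* at day 7 against day 1 (0.036, 0.043 and 0.039 with TMM scaling, quantile normalization and edgeR) and *Gata6* at day 14 against day 1 with quantile normalization (-0.0011). The cause was not tested.

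With each library left out in turn, *Zfpm2* ranged from -4.60 to -3.77 in the sort, -1.21 to -0.91 at day 7 against day 1, -0.11 to 0.18 at day 10 against day 7, -0.12 to 0.072 at day 14 against day 10 and -1.15 to -0.96 at day 14 against day 1. *Zfpm1* ranged from -0.039 to 0.11, -0.14 to 0.0094 and -0.0050 to 0.015 in the last 3 of these, *Gata3* from -1.10 to -0.77 at day 7 against day 1, and *Gata4* from -0.11 to 0.093 at day 7 against day 1, -0.042 to 0.039 at day 10 against day 7 and -0.18 to 0.016 at day 14 against day 1. Of these fits, *Gata3* passed the limit at day 7 in the one without replicate 1 of day 7.

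Each group of sorted cells gave a library of each gate, but the sources used here do not say that a replicate number marks such a group, so the pairing is not known. Same-numbered libraries had correlations of deviations of -0.32, 0.22 and -0.061 in the sort and -0.025 to 0.061 in differentiation. With the replicate number as a block 574 genes were higher and 509 lower in the sort, the counts of the time course were the same, and no call of the 6 genes between days changed. Replicates differed by more than counting noise (chi-square of 2.35 to 20.8 per gene). Values under 1 CPM, as for *Gata3* after day 1 and *Zfpm2* in replicate 3 of CD61high, rest on few reads.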
